A study of Xenopus laevis with 8 samples.

Results

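The genes described here were near absent in +/Z embryos and detected in every library of M/Z embryos. They were chosen by their counts, as the genes with 5 or fewer counts in all 4 +/Z libraries and 30 or more counts in all 4 M/Z libraries, leaving out identifiers that begin with slc or amh. Of 49086 genes listed for *Xenopus laevis*, 58 met these limits (0.118%), and a further 3 that met them were left out by their prefix. M/Z embryos came from eggs of females homozygous for a small CRISPR deletion in *wnt11b*, fertilised with mutant sperm, and +/Z embryos came from eggs of wild-type females fertilised with mutant sperm. Both groups therefore carried the mutant allele from the father, in the J-strain background, and differed in the mother as well as in the genotype. Embryos were collected at stage 9, the late blastula, and at stage 10.5, during gastrulation. Each of the 4 groups had 2 replicates, each a pool of 3 embryos, and the females behind each pool were not named, so differences between genotypes and differences between mothers cannot be told apart.

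The egg is loaded with RNA during its growth in the mother, and this maternal RNA directs development until the embryo begins to transcribe its own genome at the midblastula transition. Maternal RNA is then cleared while zygotic RNA accumulates. *X. laevis* is allotetraploid, and many of its genes are present as a pair of homeologs, marked .L and .S after the long and short chromosomes that carry them. The sequences of the pair are often close, and *RSEM*, which estimated the counts, divides reads that match both, so the split of counts between homeologs or other near copies is uncertain.

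The libraries held 31428223 to 37265579 counts in M/Z embryos and 24720921 to 30840506 in +/Z embryos, so that M/Z libraries were 1.25 times as deep on average. A floor of 3 counts corresponded to between 0.0715 and 0.136 CPM (counts scaled to a common library size, here on sizes scaled by TMM) across the libraries. Replicate libraries differed by more than sampling noise, with chi-square per degree of freedom between 15.4 and 51.4, and were kept apart. The targeted gene, *wnt11b.L*, had 1307 to 1915 counts in M/Z and 789 to 1883 in +/Z libraries, and a small deletion is not visible in counts per gene. All 20 listed entries of the early embryo markers were detected. Their summed level at stage 9 was 2625 to 2947 CPM in M/Z and 2999 to 3778 in +/Z libraries. At stage 10.5 it was 6434 to 8990 CPM in M/Z and 9248 to 9616 in +/Z libraries. The embryo sums were thus lower in every M/Z library than in every +/Z library of the same stage. Of the 20 entries, 4 passed as lower in M/Z at stage 9 and 3 at stage 10.5 (*edgeR*, adjusted p under 0.05), and 0 as higher. Over all genes tested 5.93% and 6.39% were called lower. Markers of other tissues of the female were checked as well, and none of the 58 genes was on these lists. Of 25 liver entries, 13 had 3 or fewer counts in every library, and the list summed to 13.8 to 16.6 CPM in M/Z and 8.55 to 11.0 in +/Z libraries. Of 17 ovarian follicle entries, 7 had 3 or fewer counts in every library, with *cyp19a1.L* and *inhba.L* at 0, and the sums were 106 to 138 CPM in M/Z and 41.2 to 103 in +/Z libraries. Of 13 blood entries, 10 had 3 or fewer counts in every library, and the sums were 6.98 to 12.4 and 4.74 to 12.1 CPM. The liver and follicle sums were higher in every M/Z library than in every +/Z library. The blood sums overlapped over both stages together and at stage 10.5. At stage 9 the blood sums were 6.98 to 7.18 CPM in M/Z against 4.74 to 6.45 in +/Z libraries. Over both stages together the separation of the liver and follicle sums was lost without a single gene of each list, but the follicle sums stayed apart at stage 10.5. There *cyp17a1.L* had 2007 and 2110 counts in M/Z against 1021 and 912 in +/Z libraries, before scaling for the deeper M/Z libraries. Apart from *amh.S*, *cyp17a1.L* held nearly all counts of the follicle list in every library. Whether its RNA came from follicle cells or from the egg was not tested. Without *amh.S*, which had 2162 and 1877 and then 1594 and 1418 counts in M/Z against 6 and 4 and then 14 and 11 in +/Z libraries, the follicle sums were 81.4 to 85.1 CPM in M/Z against 85.2 to 102 in +/Z at stage 9 and 59.8 to 66.5 against 40.7 to 42.7 at stage 10.5. Without *itih2.S* the liver sums overlapped at both stages, with 4.93 to 5.54 CPM in M/Z against 5.35 to 5.54 in +/Z at stage 9 and 7.09 to 8.13 against 6.76 to 8.89 at stage 10.5. *ahsg.L* of the liver list went the other way, with 7 and 7 and then 11 and 9 counts in M/Z against 38 and 50 and then 34 and 73 in +/Z libraries. Of 8 liver entries tested with *edgeR* (adjusted p under 0.05), 1 passed as higher in M/Z and 1 as lower at stage 9. At stage 10.5, 3 were higher and 1 lower. Over all genes tested 6.01% and 5.93% were called at stage 9 and 6.68% and 6.39% at stage 10.5. The part of these tissues in the results was not tested.

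Together the 58 genes had 15977 and 12746 counts in the stage 9 M/Z libraries and 10295 and 10259 in those of stage 10.5. In +/Z libraries the same genes summed to 56 and 37 counts at stage 9 and 43 and 35 at stage 10.5. On the CPM scale the M/Z sum was 370 ± 15.7 (SD, n = 2) at stage 9 and 306 ± 13.7 at stage 10.5, and the +/Z sum was 1.61 ± 0.277 and 1.62 ± 0.0391. Because these values chose the genes, they are given as a description with no test. In RNA from whole embryos, fewer cells with a transcript and less transcript per cell cannot be told apart.

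Most of the +/Z values were exact zeros. Of 232 values, for 58 genes in 4 +/Z libraries, 160 were 0. There were 19 genes at 0 in all 4 +/Z libraries, 21 with between 1 and 3 counts over the 4 libraries together, and 18 with more than 3. Set against a floor of 3 counts over the 4 +/Z libraries, the 19 genes at 0 were at least 31.6-fold to at least 1308-fold higher in M/Z embryos, with a median bound of 139-fold. For the other 39 genes the ratio of M/Z to +/Z CPM ran from 16.1 to 5578, with a median of 83.8. These bounds, and the exact 95% intervals given with ratios below, cover counting error only.

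**Figure D1:**
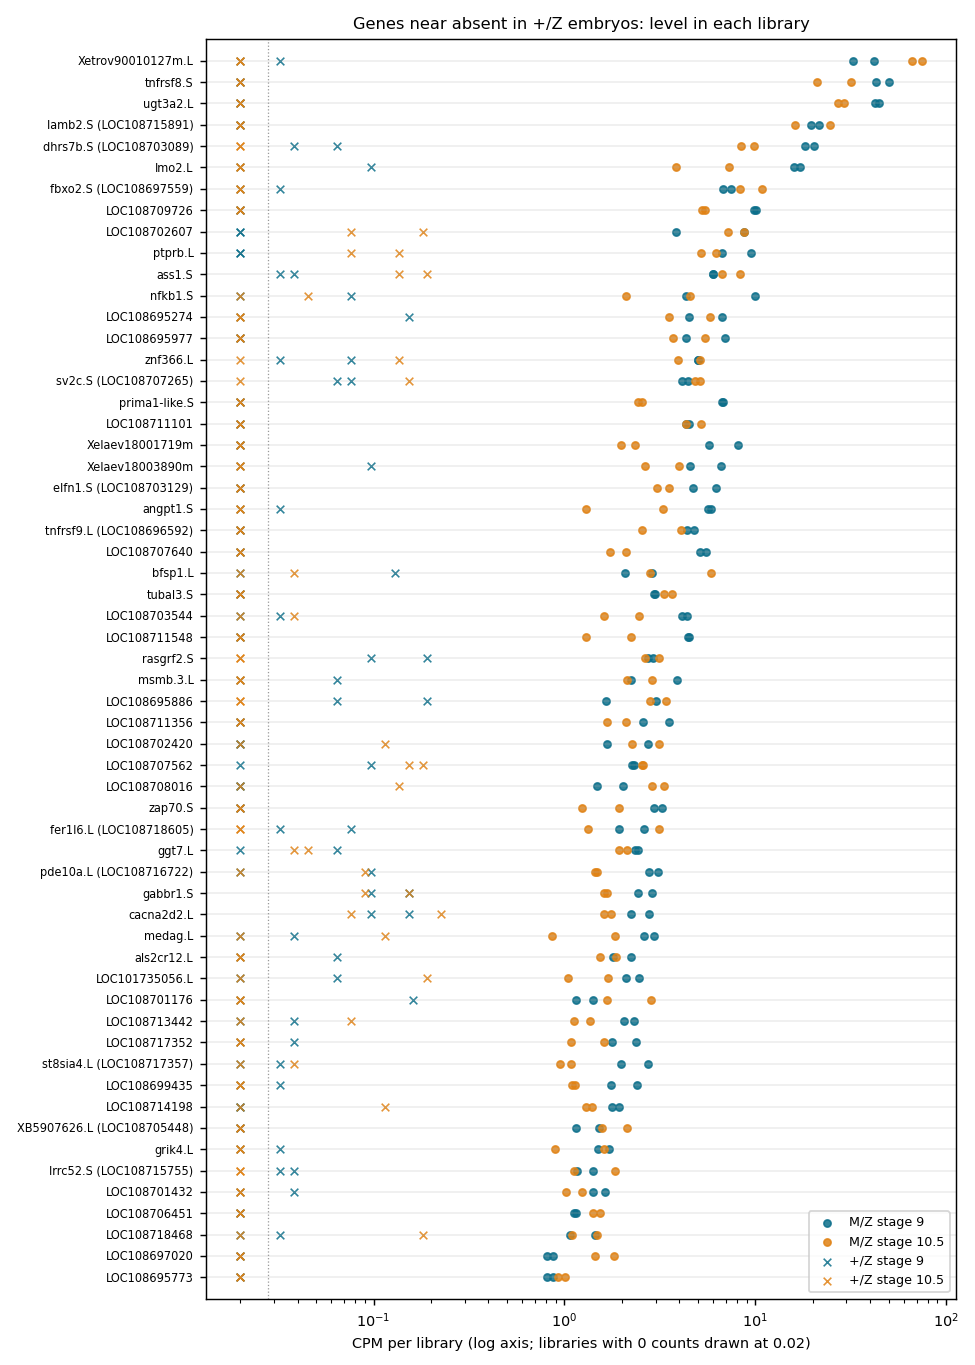
Level of each of the 58 genes in each of the 8 libraries, in CPM on a log axis, ordered by the mean over M/Z libraries. Circles are M/Z and crosses are +/Z libraries, blue for stage 9 and orange for stage 10.5, and libraries with 0 counts are drawn at 0.02 CPM; the M/Z means run from 0.904 to 53.8 CPM, and 160 of the 232 crosses are at 0.

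In M/Z embryos most of these genes were expressed at low levels. Their mean CPM ran from 0.904 to 53.8, with a median of 2.82, against a median of 10.03 over the 25448 genes tested, and 33.8% of genes tested were below the median gene of the set. There were 44 genes under 5 CPM and 4 over 20 CPM, and the 5 highest held 47.5% of the summed level. CPM is not corrected for transcript length, so this order is one of reads and not of molecules. The 2 M/Z replicates were about as close as for other genes, with a median absolute log2 difference of 0.20 at stage 9 and 0.30 at stage 10.5, against 0.18 and 0.31 in the 18172 other tested genes with 30 or more counts in every M/Z library. At stage 9 the replicates differed by over 2-fold for 2 of the 58 genes, and at stage 10.5 for 5.

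By identity the set held a larger share of LOC identifiers than all listed genes, but a smaller share of Xelaev or Xetrov identifiers. There were 35 LOC identifiers (60.3%, against 33.0% of all listed genes) and 3 identifiers beginning with Xelaev or Xetrov (5.17% against 25.2%). All listed genes include those that failed the expression filter. Such shares among the 25448 genes tested were not computed. In RefSeq's gene table for the *X. laevis* v10.1 assembly, 43 of the 58 identifiers were found (74.1%, against 61.2% of all listed genes). Of the 58, 40 were protein coding (69.0% against 57.2%), 2 long non-coding RNAs (3.45% against 2.28%) and 1 a pseudogene (1.72% against 1.44%). There 11 of the LOC identifiers received another symbol, which was 19.0% of the set against 7.62% of all listed genes. In the files 13 of the identifiers ended in .L and 9 in .S, and with the RefSeq symbols 18 genes were marked .L and 15 .S. No list of functions was fixed for the set, so the roles below are background, and genes outside the ranking by level, by stage and by homeolog described in the methods were picked for their names after their values were seen.

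In the sentences below, counts are given for replicates 1 and 2 of stage 9 and then for replicates 1 and 2 of stage 10.5. The highest CPM in the set was that of *Xetrov90010127m.L*, which has no annotation here. Its M/Z pools gave 1756 and 1161 counts at stage 9 and 2584 and 2151 at stage 10.5, against 1 and 0 and then 0 and 0 in +/Z pools. Its M/Z to +/Z ratio was 5578 (95% interval 1001 to 220346), resting on a single +/Z count. A further pair of genes near the top had no descriptive symbol here, and their roles were not looked up. LOC108709726 had 424 and 350 and then 182 and 177 counts in M/Z pools, with 0 in every +/Z library, and LOC108702607 had 364 and 136 and then 250 and 284 in M/Z, with 0 and 0 and then 2 and 4 in +/Z libraries. The latter was among the genes with the least even replicates at stage 9.

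Genes known from immune cells in mammals were among the set. *tnfrsf8.S*, encoding the receptor also called CD30, had 2101 and 1528 counts at stage 9 and 727 and 1029 at stage 10.5 in M/Z embryos. It had 0 in every +/Z library, a difference of at least 1308-fold. *tnfrsf9.L* (listed as LOC108696592), encoding a related receptor that costimulates T cells, had 183 and 169 and then 88 and 133 counts in M/Z pools, with 0 in every +/Z library. *zap70.S*, encoding a kinase of T cell receptor signalling, had 124 and 115 and then 43 and 63 counts in M/Z pools, with 0 in every +/Z library, at least 83.8-fold. For these receptors and this kinase the groups were fully separated, as the limits require. *nfkb1.S*, encoding a subunit of the transcription factor NF-κB, had 181 and 353 counts at stage 9 and 73 and 148 at stage 10.5 in M/Z, against 0 and 2 and then 0 and 1 in +/Z embryos. Replicate 2 was the higher M/Z library of *nfkb1.S* at both stages.

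The set also held enzymes and a protein that works with one. *ugt3a2.L*, which belongs to a family of enzymes that attach sugars to small lipophilic molecules, had 1779 and 1584 counts at stage 9 and 935 and 951 at stage 10.5 in M/Z, and 0 in every +/Z library, at least 1275-fold. *dhrs7b.S* (listed as LOC108703089), a short-chain dehydrogenase/reductase known in mammals from ether lipid synthesis, had 762 and 724 and then 293 and 320 counts in M/Z, against 2 and 1 and then 0 and 0 in +/Z. Its ratio was 510 (95% interval 174 to 2475). *ass1.S*, encoding the argininosuccinate synthase of arginine synthesis and the urea cycle, was less fully absent from +/Z embryos than most of the set. It had 253 and 214 and then 290 and 217 counts in M/Z, and 1 and 1 and then 5 and 3 in +/Z, a ratio of 71.0. *fbxo2.S* (LOC108697559), encoding an F-box protein that directs ubiquitin ligase to glycoproteins, had 284 and 266 and then 376 and 269 counts in M/Z pools, with a single count in +/Z embryos. *st8sia4.L* (LOC108717357), encoding a sialyltransferase that builds polysialic acid on the neural cell adhesion molecule, had 115 and 70 and then 33 and 35 counts in M/Z, against 1 and 0 in +/Z embryos at either stage.

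Genes known from vessels, blood and the matrix included *lamb2.S* (LOC108715891), which encodes a laminin chain of basement membranes. It had 902 and 694 and then 853 and 525 counts in M/Z pools, with 0 in every +/Z library, at least 723-fold. *lmo2.L*, encoding a LIM cofactor required for blood formation in mice, had 671 and 611 counts at stage 9 and 133 and 235 at stage 10.5 in M/Z, against 3 and 0 and then 0 and 0 in +/Z, a ratio of 401 (95% interval 137 to 1946). *ptprb.L*, encoding a receptor tyrosine phosphatase of endothelium, had 396 and 239 and then 181 and 201 counts in M/Z, against 0 and 0 and then 2 and 3 in +/Z. The only +/Z counts of *ptprb.L* were thus at stage 10.5, whereas those of *lmo2.L* were at stage 9. *angpt1.S*, encoding a ligand of the endothelial Tie receptor, had 247 and 202 and then 45 and 107 counts in M/Z pools, with a single count in +/Z embryos. 

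Several genes known from neurons had low levels in M/Z embryos. *elfn1.S* (LOC108703129), encoding a synaptic adhesion protein, had 261 and 167 and then 106 and 115 counts in M/Z pools, with 0 in every +/Z library. *prima1-like.S*, named after the protein that anchors acetylcholinesterase in membranes, had 279 and 241 and then 88 and 79 counts in M/Z pools, with 0 in every +/Z library. *sv2c.S* (LOC108707265), encoding a synaptic vesicle glycoprotein, had 174 and 158 and then 168 and 166 counts in M/Z, against 2 and 2 and then 4 and 0 in +/Z. The 4 M/Z libraries of *sv2c.S* thus lay close together across replicates and stages. *gabbr1.S*, encoding a subunit of the GABA-B receptor, had 120 and 86 and then 56 and 54 counts in M/Z, and was detected in all +/Z libraries, with 3 and 4 and then 4 and 2 counts. *grik4.L*, encoding a kainate receptor subunit, had 63 and 61 and then 31 and 52 counts in M/Z pools, with a single count in +/Z embryos.

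Non-coding members had no +/Z counts at all. The long non-coding RNA LOC108711101 had 188 and 154 counts at stage 9 and 150 and 168 at stage 10.5 in M/Z, at least 160-fold above +/Z embryos. The other, LOC108711548, had 188 and 158 and then 45 and 72 counts in M/Z. For LOC108711548 both stage 10.5 libraries were below both stage 9 libraries, whereas for LOC108711101 the stages were close. The pseudogene LOC108695773 had 34 and 31 and then 35 and 30 counts in M/Z, the lowest mean level of the set, at least 31.6-fold above +/Z embryos.

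The limits cut through a continuous range of counts. Just inside them on the M/Z side were 4 genes with a lowest count of 30 or 31, among them the pseudogene, *medag.L*, with 124 and 93 and then 30 and 60 counts in M/Z, against 0 and 1 and then 3 and 0 in +/Z, and LOC108697020, with 34 and 31 and then 63 and 47 in M/Z and 0 in +/Z. Just inside the +/Z limit were 6 genes with a highest count of 5, among them *ass1.S*, *cacna2d2.L*, encoding an accessory calcium channel subunit, with 117 and 79 and then 56 and 57 counts in M/Z, against 3 and 4 and then 2 and 5 in +/Z, and *rasgrf2.S*, encoding a Ras exchange factor, with 122 and 97 and then 109 and 86 in M/Z and 3 and 5 and then 0 and 0 in +/Z. Just outside were 13 genes whose highest +/Z count was 6, and a single gene whose lowest M/Z count was 29. Among the 13, *klhl29.S* had 363 and 305 and then 386 and 289 counts in M/Z against 6 and 6 and then 3 and 0 in +/Z, and *lmx1b.1.S* had 275 and 201 and then 82 and 166 against 6 and 3 and then 6 and 0. LOC108713262 had 238 and 180 and then 71 and 77 against 6 and 3 and then 4 and 0. The gene outside the M/Z limit, LOC108697015, had 39 and 32 and then 29 and 36 counts in M/Z, against 1 and 0 and then 0 and 0 in +/Z. With a limit of 10 counts in +/Z libraries the set would hold 111 genes, and with 100 or more counts in M/Z libraries 18. Since the M/Z libraries were deeper, the limits were also applied to counts scaled by library size, and 45 of the 58 genes met them, with no gene gained. Turned around, the same limits found 66 genes near absent in M/Z embryos.

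The counts of the other homeolog did not enter the choice, so its difference between M/Z and +/Z embryos was tested. Because *RSEM* divides reads that match both copies, these counts are not fully independent of those that chose the set. Another homeolog was listed for 22 of the 58 genes (37.9%, against 34.7% of all listed genes), and none of these was itself in the set. Of the 22, 15 passed the expression filter of *edgeR* and were tested with its quasi-likelihood test, with Benjamini-Hochberg adjustment over all 25448 genes and a threshold of 0.05. At stage 9, 2 homeologs passed as higher in M/Z embryos and 2 as lower, 13.3% each, where 6.01% and 5.93% of all genes tested were called. At stage 10.5, 1 was higher and 2 were lower, where 6.68% and 6.39% of all genes tested were called. The median log2 difference of the 15 was 0.86 at stage 9 and 0.84 at stage 10.5, against 0.00 and 0.02 over all genes tested, and 11 of the 15 were positive at each stage. Among these, *prima1-like.L* and *tubal3.L* had 0 counts in every +/Z library. They passed the filter only through M/Z libraries, so their positive sign was fixed in advance. The +/Z counts of *fer1l6.S*, *elfn1.L* and *lrrc52.L* were also too low to pass the filter alone. These homeologs entered through M/Z libraries, which favoured a positive sign, and *medag.S* entered only through +/Z libraries, which favoured a negative one. The medians and the number of positive values thus depend in part on the filter. The difference between the stages was itself tested for each of the 15, and 0 passed in *edgeR* or *DESeq2* (0 also at an unadjusted p under 0.05), where 0.0472% of all genes tested were called in either direction, 0.0196% higher and 0.0275% lower.

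The *st8sia4* pair was higher in M/Z embryos in both homeologs. *st8sia4.S* had 632 and 266 counts in M/Z against 11 and 20 in +/Z pools at stage 9, and 98 and 157 against 6 and 5 at stage 10.5. Its log2 fold change was 4.35 at stage 9 (SE 0.52, adjusted p = 0.00065 from *edgeR*) and 4.05 at stage 10.5 (SE 0.59, adjusted p = 0.0025). The lowest M/Z library was above the highest +/Z library at each stage, and the call held at both stages without any single library, with log2 values down to 3.75 and 3.62. The near-absent *st8sia4.L* made up 15.4% to 25.2% of the counts of the pair in M/Z libraries.

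In the *fer1l6* pair, which encodes a member of the ferlin family of membrane proteins, both homeologs had low counts. *fer1l6.L* (LOC108718605) had 110 and 69 and then 108 and 43 counts in M/Z, against 1 and 2 and then 0 and 0 in +/Z. Its homeolog *fer1l6.S* (LOC108719759) had 40 and 20 counts in M/Z against 0 and 3 in +/Z pools at stage 9, and 71 and 64 against 9 and 10 at stage 10.5. The log2 fold change of *fer1l6.S* was 3.74 at stage 9 (SE 0.90, adjusted p = 0.025, *edgeR*) and 2.33 at stage 10.5 (SE 0.69, adjusted p = 0.054). The gene passed the expression filter only through M/Z libraries, so a higher level in M/Z was favoured in advance. The stage 9 call was lost without M/Z replicate 1 (adjusted p = 0.15), M/Z replicate 2 (0.059) or +/Z replicate 1 (0.14) of that stage, and at stage 10.5 the gene passed with *DESeq2* (adjusted p = 0.034), with library totals (0.038) and with no expression filter (0.0053).

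In the *dhrs7b* and *zap70* pairs the other homeolog was lower in M/Z embryos. *dhrs7b.L* had 163 and 170 counts in M/Z against 278 and 273 in +/Z pools at stage 9, and 96 and 67 against 177 and 178 at stage 10.5. Its log2 fold change was -1.16 at stage 9 (SE 0.28, adjusted p = 0.025, *edgeR*) and -1.61 at stage 10.5 (SE 0.29, adjusted p = 0.0070). The near-absent *dhrs7b.S* made up 75.3% to 82.7% of the pair in M/Z libraries, and the summed level of the pair at stage 9 was 23.6 ± 2.20 CPM in M/Z against 9.74 ± 1.02 in +/Z pools, and 11.6 ± 0.504 against 7.42 ± 0.928 at stage 10.5. *zap70.L* had 28 and 16 counts in M/Z against 72 and 43 in +/Z pools at stage 9, and 27 and 25 against 102 and 68 at stage 10.5. Its log2 fold change was -1.81 (SE 0.43, adjusted p = 0.022, *edgeR*) and -2.17 (SE 0.42, adjusted p = 0.010). In these pairs the direction of the near-absent copy was fixed by the choice of the set, and the other homeolog went the opposite way. The *zap70* pair summed to 3.65 CPM in M/Z against 1.98 in +/Z pools at stage 9, but to 2.36 ± 0.491 against 3.49 ± 0.575 at stage 10.5. Whether reads of one homeolog were assigned to the other was not tested. Both stage 9 calls were lost without any single stage 9 library (adjusted p = 0.10 to 0.23 for *dhrs7b.L* and 0.057 to 0.19 for *zap70.L*), and at stage 10.5 *dhrs7b.L* missed the threshold in the stage 10.5 libraries alone (adjusted p = 0.058) and *zap70.L* without M/Z replicate 2 of that stage (0.052).

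**Figure D2:**
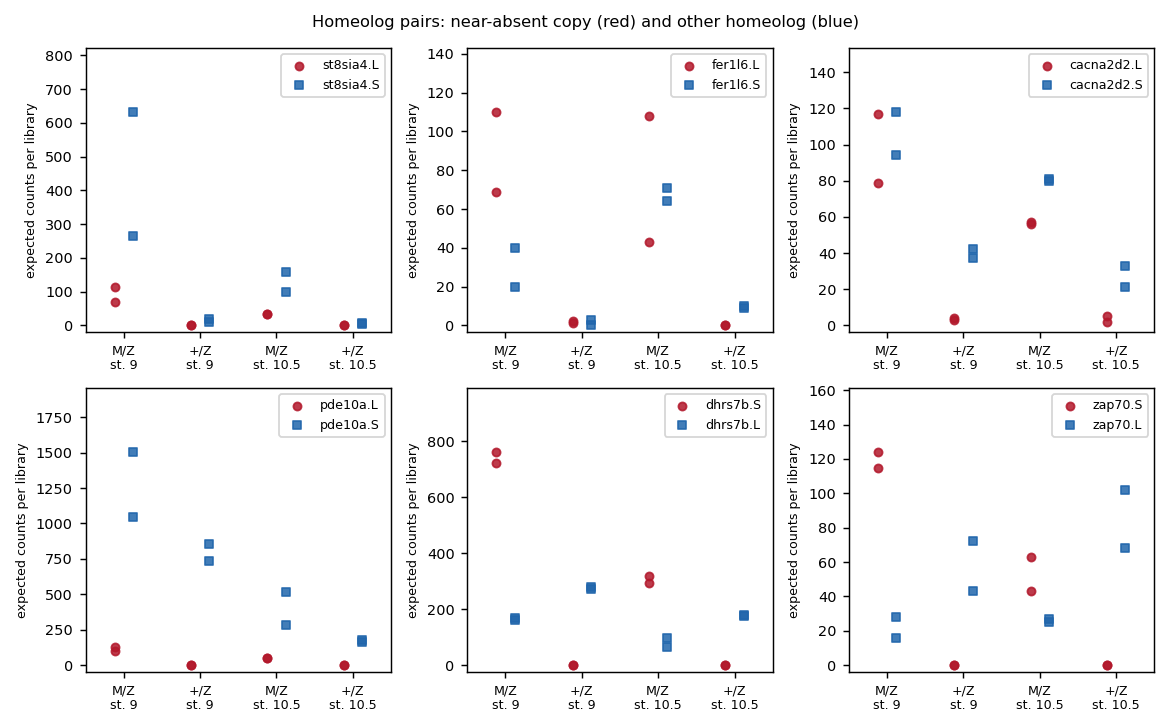
Counts per library of 6 homeolog pairs in the 4 groups, with the near-absent copy in red and the other homeolog in blue, 2 points per group for the 2 replicates, on a linear axis for each pair. The blue points are higher in M/Z embryos for *st8sia4.S* (632 and 266 against 11 and 20 at stage 9) and lower for *dhrs7b.L* (163 and 170 against 278 and 273), and those of *pde10a.S* are lower at stage 10.5 than at stage 9 in both genotypes.

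Among the homeologs that missed the threshold, *cacna2d2.S* had 118 and 94 counts in M/Z against 42 and 37 in +/Z pools at stage 9, and 81 and 80 against 33 and 21 at stage 10.5. Its log2 differences were 0.98 (SE 0.36, adjusted p = 0.11, *edgeR*) and 1.11 (SE 0.37, adjusted p = 0.075), and M/Z and +/Z libraries did not overlap. In *edgeR*, *cacna2d2.S* passed in the stage 9 libraries alone (adjusted p = 0.032) and at stage 10.5 with library totals (0.041). *pde10a.S* (LOC108717870), encoding a phosphodiesterase of cyclic nucleotides, had the most counts of the tested homeologs. It had 1504 and 1043 counts in M/Z against 732 and 856 in +/Z pools at stage 9, and 286 and 515 against 163 and 175 at stage 10.5, log2 differences of 0.21 (SE 0.31, adjusted p = 0.72) and 0.77 (SE 0.33, adjusted p = 0.15). With no expression filter *pde10a.S* passed at stage 10.5 (adjusted p = 0.036, *edgeR*). The near-absent *pde10a.L* (LOC108716722) had 130 and 98 and then 50 and 48 counts in M/Z, which was 7.96% to 14.9% of the pair. Unlike *pde10a.L*, its homeolog was therefore well expressed in embryos of both genotypes.

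Some homeologs were themselves at 0 in +/Z embryos, at lower counts. *prima1-like.L* had 11 and 16 and then 12 and 1 counts in M/Z pools, with 0 in every +/Z library, at least 6.64-fold and 3.11-fold higher at stages 9 and 10.5 (adjusted p = 0.087 and 0.15, *edgeR*). With no expression filter it passed at stage 9 (adjusted p = 0.035, *edgeR*). *tubal3.L*, an α-tubulin-like gene, had 13 and 4 and then 9 and 11 counts in M/Z pools, with 0 in every +/Z library, at least 4.18-fold and 4.79-fold higher (adjusted p = 0.087 and 0.068). The *tubal3.S* copy in the set had 125 and 105 and then 115 and 119 counts in M/Z and 0 in +/Z. *medag.S* went the other way, with 6 and 2 counts in M/Z against 22 and 14 in +/Z embryos at stage 9 and 0 and 0 against 2 and 5 at stage 10.5, but did not pass the threshold (log2 difference -2.57, SE 0.92, adjusted p = 0.11 at stage 9). In the stage 9 libraries alone *medag.S* passed (adjusted p = 0.010, *edgeR*). The 7 homeologs that were not tested had at most 12 counts in any library. Of these, *tnfrsf9.S* was at 0 in all 8 libraries, *tnfrsf8.L* had 3 counts in a single M/Z library and 0 elsewhere, and *lmo2.S* had 4 and 7 and then 2 and 11 counts in M/Z, against 2 and 0 and then 0 and 0 in +/Z. For *tnfrsf8*, *tnfrsf9* and *lmo2*, nearly all counts of the pair in M/Z embryos were therefore assigned to the copy in the set.

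Stage 10.5 was compared with stage 9 in M/Z embryos to follow the level of these genes between the late blastula and the gastrula, both after zygotic transcription has begun. The limits bound the M/Z counts from below at both stages but do not use the difference between them directly. The +/Z limit at stage 10.5 also leaves out any gene switched on by then in both genotypes. Few rises and a lower median were thus favoured by the choice, and the values below depend on it in part. Levels of the set in M/Z were also lower, with a median of 2.82 CPM against 10.03 over all genes tested, where changes are harder to call. All 58 genes passed the expression filter, which they could do only through the M/Z libraries. In *edgeR*'s quasi-likelihood test 1 of 58 was higher at stage 10.5 (1.72%) and 6 were lower (10.3%), where 16.7% and 15.6% of all genes tested were called. The median log2 change was -0.40, against 0.02 over all genes tested, with 38 negative and 20 positive values between -1.67 and 0.95. The 18172 other genes with 30 or more counts in every M/Z library had a median of -0.06, with 15.1% higher and 20.4% lower. With library totals in place of TMM the median of all genes tested moved by -0.20 and that of the set to -0.60. Such rescaling shifts all genes by about the same amount, so the gap of 0.42 between the set and all genes necessarily stayed. Without M/Z replicate 1 or 2 of stage 9, or M/Z replicate 1 of stage 10.5, 0 of the 58 passed in either direction (6, 6 and 5 lower at an unadjusted p under 0.05), and without either +/Z library of stage 10.5, 10 were lower.

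The gene that rose was *Xetrov90010127m.L*, from 37.3 ± 6.50 CPM at stage 9 to 70.4 ± 5.80 at stage 10.5 (SD, n = 2), a log2 change of 0.92 (SE 0.23, adjusted p = 0.018, *edgeR*). Both stage 10.5 libraries were above both stage 9 libraries. The largest fall was that of Xelaev18001719m, an unannotated gene with 241 and 288 counts at stage 9 and 69 and 76 at stage 10.5 and 0 in every +/Z library, with a log2 change of -1.67 (SE 0.38, adjusted p = 0.014). *lmo2.L* fell by 1.58 on the log2 scale (SE 0.42, adjusted p = 0.020), from 16.6 ± 0.848 to 5.54 ± 2.41 CPM. LOC108707640, a gene with no other symbol, went from 216 and 197 to 60 and 68 counts, a log2 change of -1.48 (SE 0.39, adjusted p = 0.023). *prima1-like.S* fell by 1.43 (SE 0.35, adjusted p = 0.018). *dhrs7b.S* went from 19.3 ± 1.56 to 9.15 ± 1.00 CPM, a log2 change of -1.07 (SE 0.26, adjusted p = 0.013), and *tnfrsf8.S* from 46.5 ± 5.01 to 26.3 ± 7.61 CPM, -0.82 (SE 0.27, adjusted p = 0.049). For each of these 6 falls both stage 9 libraries were above both stage 10.5 libraries. The call of *tnfrsf8.S* was also lost without either +/Z library of stage 9 (adjusted p = 0.062).

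**Figure D3:**
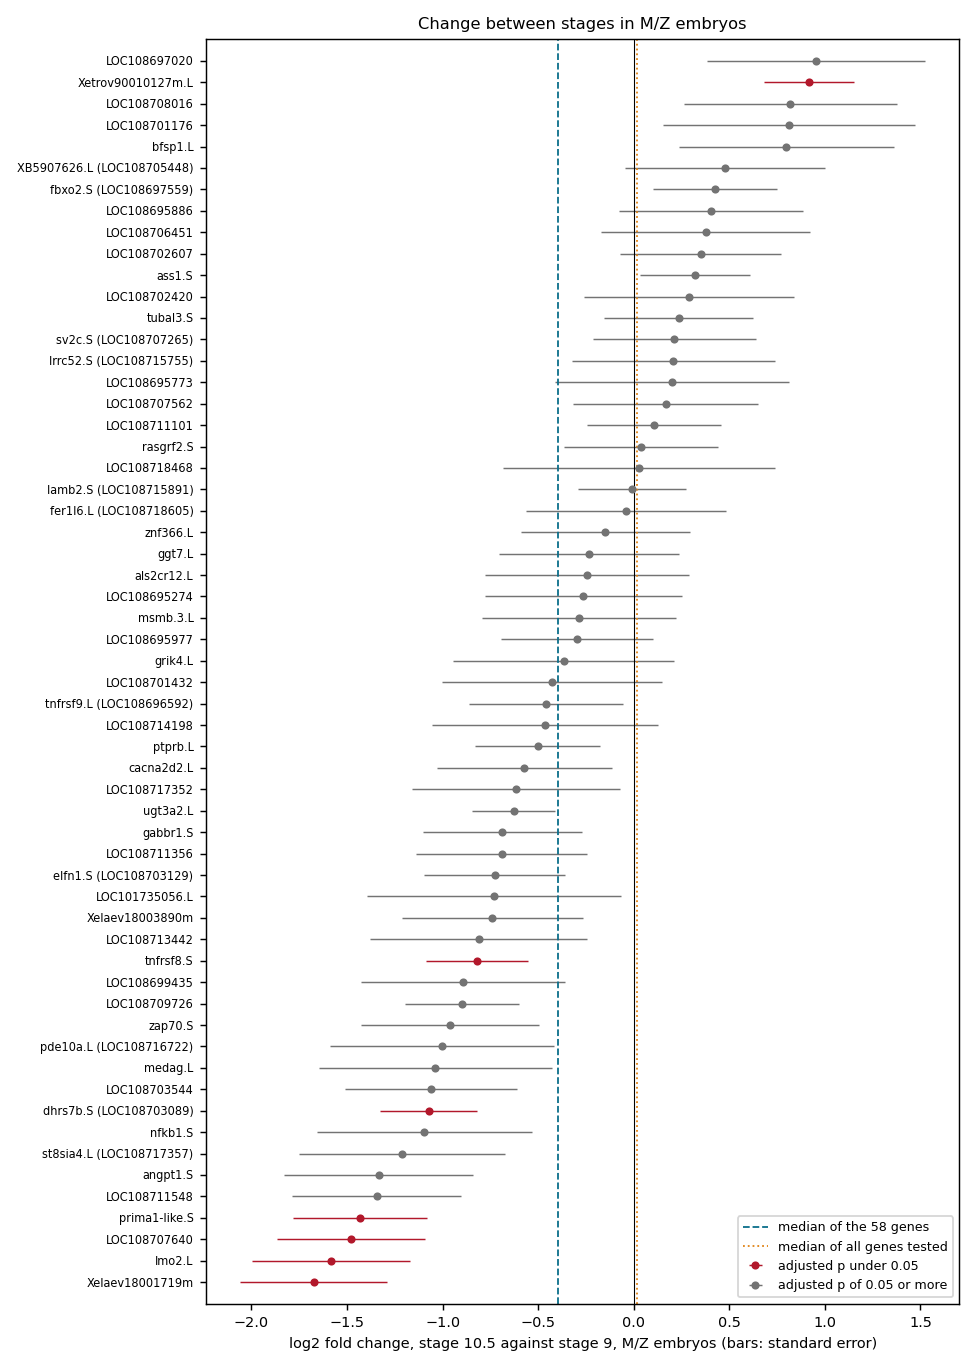
Log2 fold change of each of the 58 genes from stage 9 to stage 10.5 in M/Z embryos, with standard errors as bars, red where the adjusted p was under 0.05. The dashed line is the median of the 58 genes (-0.40) and the dotted line that of all genes tested (0.02); 6 genes fell and 1 rose past the threshold.

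Other genes near the top of the set did not pass the threshold. *ugt3a2.L* went from 43.5 ± 1.53 to 28.1 ± 1.67 CPM, a log2 difference of -0.63 (SE 0.22, adjusted p = 0.059, *edgeR*), and passed with *DESeq2* (0.043). *lamb2.S* stood at a log2 difference of -0.01 (SE 0.28, adjusted p = 0.99), *fbxo2.S* at 0.42 (SE 0.32, adjusted p = 0.35) and *ass1.S* at 0.32 (SE 0.29, adjusted p = 0.43). *nfkb1.S* had a larger difference with a wide error, -1.09 (SE 0.56, adjusted p = 0.16). Among the long non-coding RNAs LOC108711548 was at -1.34 (SE 0.44, adjusted p = 0.051) and LOC108711101 at 0.11 (SE 0.35, adjusted p = 0.85). The largest positive difference that missed the threshold was that of LOC108697020, 0.95 (SE 0.57, adjusted p = 0.24). In CPM, 29 of the 58 genes had both stage 9 libraries above both stage 10.5 libraries and 12 the reverse, where 35.2% and 36.2% of all genes tested did.

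In +/Z embryos the counts of the 58 genes were too near 0 for a change between stages to be read, but the homeologs could be followed in both genotypes. In M/Z embryos 1 of the 15 tested homeologs was higher at stage 10.5 and 3 were lower. Over all genes tested 16.7% and 15.6% were called in M/Z. In +/Z embryos 2 homeologs were higher and 1 lower, where 23.3% and 23.2% of all genes tested were called. *pde10a.S* fell in both, with log2 changes of -1.44 in M/Z (SE 0.32, adjusted p = 0.0088, *edgeR*) and -1.99 in +/Z embryos (SE 0.33, adjusted p = 0.0012), and the call in M/Z was lost without M/Z replicate 1 of stage 9 (0.065). The near-absent *pde10a.L* did not pass in M/Z embryos (adjusted p = 0.22, SE 0.59 on the log2 scale). *gabbr1.L* passed as higher at stage 10.5 in both genotypes, from 2 and 4 to 18 and 18 counts in M/Z and from 3 and 2 to 14 and 10 in +/Z embryos, but lost the call in M/Z with *DESeq2* (adjusted p = 0.073) and without any M/Z library or either +/Z library of stage 9 (0.057 to 0.24), and in +/Z without any single library (0.066 to 0.18). *gabbr1.S*, its near-absent copy, stood at -0.69 in M/Z embryos (SE 0.42, adjusted p = 0.24).

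Genes next to the set on the chromosomes were then examined, by their order in RefSeq's table. The 43 placed genes had 84 distinct nearest tested neighbours outside the set. Listed genes that were not tested were passed over, so some neighbours were not adjacent. For example, 7 listed genes lay between LOC108695773 and LOC108696977. At stage 9, 5 neighbours passed as higher in M/Z embryos (5.95%) and 9 as lower (10.7%), with the same numbers at stage 10.5, where all genes tested gave shares of 6.01% and 5.93% at stage 9 and of 6.68% and 6.39% at stage 10.5. The median log2 difference was -0.13 and 0.03. There were 7 neighbours called at both stages (8.33%, against 6.48% of all genes tested). Genes of the set, all higher in M/Z by choice, were passed over in taking neighbours. The share of higher neighbours therefore leaves them out, and whether neighbours met the limits of the set could not be asked. The stage 9 counts depended on single libraries, with 1 higher neighbour without any one stage 9 library, 8 without either +/Z library of stage 10.5, and 3 lower without either M/Z library of stage 9 or 5 without +/Z replicate 1 of stage 9. At stage 10.5 there were 10 higher neighbours without M/Z replicate 1 of that stage and 0 to 2 without any other single library, and 4 lower ones without any one stage 9 library or M/Z replicate 2 of stage 10.5.

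Of the 7 neighbours called at both stages, 6 were lower in M/Z embryos and 1 was higher. The split by direction of the 1648 genes tested that were called at both stages was not computed, and the direction of the set was fixed by its choice. A further 4 neighbours had 5 or fewer counts in every +/Z library, as the set did, but fewer M/Z counts. Of these, 2 passed as higher in M/Z embryos at stage 9 and 1 at stage 10.5. LOC108706867, next to *zap70.S*, had 22 and 14 and then 9 and 9 counts in M/Z pools, with 0 in every +/Z library, at least 8.86-fold higher at stage 9 (adjusted p = 0.026, *edgeR*), a call lost without any one stage 9 library (0.12 to 0.18). LOC108696188, next to the pseudogene, had 18 and 28 and then 4 and 10 counts in M/Z, against 0 and 1 and then 0 and 0 in +/Z, with an adjusted p of 0.042 at stage 9 that was lost without any one stage 9 library or either M/Z library of stage 10.5 (0.050 to 0.29) and with *DESeq2* (0.080). LOC108701060, next to *ggt7.L*, had 15 and 22 and then 28 and 21 counts in M/Z, against 2 and 1 and then 0 and 1 in +/Z. Its log2 fold change at stage 10.5 was 4.87 (SE 1.09, adjusted p = 0.020), lost without M/Z replicate 2 of either stage (0.050 at stage 9 and 0.063 at stage 10.5) or +/Z replicate 1 of stage 10.5 (0.065). With so few +/Z counts, these neighbours could pass the expression filter only through the M/Z libraries. The share of all genes tested with 5 or fewer counts in every +/Z library was not computed. Whether such genes are more frequent beside the set was therefore not tested. *dsg2.S*, encoding a desmoglein of desmosomes and lying next to LOC108695274, had 151 and 148 counts in M/Z against 2105 and 1621 in +/Z pools at stage 9, and 449 and 198 against 1311 and 860 at stage 10.5. Its log2 fold change was -4.06 (SE 0.35, adjusted p = 0.00011, *edgeR*) and -2.22 (SE 0.32, adjusted p = 0.0025), while LOC108695274 had 282 and 159 and then 123 and 188 counts in M/Z, against 0 and 4 and then 0 and 0 in +/Z. *nlrp3.L*, named after the inflammasome sensor and lying next to LOC108699435, had 31 and 32 against 345 and 290 counts at stage 9 and 80 and 70 against 213 and 246 at stage 10.5, log2 fold changes of -3.76 (SE 0.31, adjusted p = 8.2e-05) and -2.11 (SE 0.28, adjusted p = 0.0017). LOC108711547, next to the long non-coding RNA LOC108711548, had 34 and 26 against 119 and 120 counts at stage 9 and 5 and 6 against 39 and 56 at stage 10.5. Its log2 fold change was -2.44 (SE 0.42, adjusted p = 0.0049) and -3.58 (SE 0.50, adjusted p = 0.0021), with the stage 9 call lost without M/Z replicate 1 (0.055) or 2 (0.061) of that stage. These last 3 neighbours had the largest differences of the 6 lower ones. All neighbours named were chosen after their values were seen. Within the set, *ptprb.L* and LOC108711101 lay closest to each other, with 2 listed genes between them, and *dhrs7b.S* and LOC108702420 had 14 between them.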

How the data were processed

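RNA from whole embryos was sequenced as paired-end reads in 8 libraries, 2 replicates of 3 pooled embryos for each of M/Z and +/Z at stages 9 and 10.5. The authors processed the reads with the CSBB pipeline, version 3.0, in which *bowtie2* aligned them to *X. laevis* genome 9.2, estimating counts per gene with *RSEM* (1.3.0 in the submitters' processing notes), and deposited expected counts of 49086 genes. All values were whole numbers and were used as deposited, with no further rounding. They are not normalised for library size, no gene name was blank, and no column was left unused. The gene annotation, the strand setting and the *bowtie2* version are not given in the sources used here, so overlapping and antisense genes cannot be told apart.

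The test was *edgeR*'s (4.0.16, under R 4.3.3), after TMM normalisation and filterByExpr, which kept 25448 genes. The 4 groups were fitted together with glmQLFit and glmQLFTest, and Benjamini-Hochberg adjustment covered all genes tested, at a threshold of 0.05. P-values measure the spread between pools, which may share a mother. The M/Z to +/Z difference of the 58 genes was not tested, because it chose them. CPM values use TMM library sizes, and SDs are over the 2 replicates. Ratios were computed on summed counts scaled by library size, with exact conditional 95% intervals that do not allow for the choice of the genes. For genes at 0, a floor of 3 counts over the libraries of the group was used. RefSeq's gene table for the v10.1 assembly served for names and for the order of genes. It differs from the authors' genome version, so no coordinates are given.

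The genes named by rule are the 12 with the highest mean M/Z level and up to 5 that rose and 5 that fell most between stages past the threshold. Those whose other homeolog passed at both stages and those nearest to either limit were also named by rule. Other genes named, such as *angpt1.S*, *elfn1.S* and *grik4.L*, were picked after their values were seen. The members and lists were chosen with earlier results of these data known. Alternatives were *DESeq2* 1.42.0, its size factors, library totals, no expression filter, the libraries of one genotype or stage alone, the replicate number as a block, other limits, and leaving out each library.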

Additional observations from a re-analysis of the deposited data

How the results depend on the processing

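For single genes named with a log2 change, 671 values under an alternative kept their direction and side of the threshold, 75 lost and 29 gained the call, and 0 changed sign with a call. Of the counts, 132 stayed within 1.5 times and 78 moved. The cause of these changes was not tested, also where fewer genes or libraries entered.

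The set held 111 genes with 10 or fewer counts allowed in +/Z, 18 with 100 or more required in M/Z, and 58 to 76 without 1 library. Genes of the set lower at stage 10.5 in M/Z embryos numbered 11 in the M/Z libraries alone, 10 with library totals, and 0 to 10 without 1 library, and 0 to 1 were higher without 1 library. Homeologs higher in M/Z at stage 10.5 numbered 2 with *DESeq2*, 3 with library totals and 3 with no filter. Those lower numbered 1 in the stage 10.5 libraries alone. Without 1 library, 1 to 2 were higher and 0 to 2 lower at stage 9, and 1 to 2 higher and 1 to 2 lower at stage 10.5.

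The alternatives for the homeologs' change between stages were chosen after seeing the data. Those higher at stage 10.5 in M/Z numbered 0 with *DESeq2* (2 at an unadjusted p under 0.05), 3 in the M/Z libraries alone, and 0 to 1 without 1 library, with 0 to 3 lower. In +/Z, 1 was higher with *DESeq2*, 1 with no filter and 0 with library totals (2 unadjusted), and without 1 library 0 to 1 were higher and 1 to 2 lower. With library totals, calls in the direction of higher values took 37.5% in place of 51.6% for the stage change in M/Z over all genes tested, 34.4% in place of 50.1% in +/Z, 58.3% in place of 50.3% for the genotypes at stage 9, and 70.5% in place of 51.1% at stage 10.5.

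Neighbours higher at stage 9 numbered 10 in the stage 9 libraries alone and 1 to 8 without 1 library, and those lower 19 in these libraries alone, 15 with no filter and 3 to 12 without 1 library. At stage 10.5, 12 were higher with no filter, 0 in the stage 10.5 libraries alone (7 unadjusted) and 0 to 10 without 1 library, and 5 were lower with library totals, 4 in these libraries alone and 4 to 9 without 1 library. The difference of their genotype effects between stages passed for 0 of 84 in *edgeR* (9 at an unadjusted p under 0.05), 2 in *DESeq2* and 3 with no filter.

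The deviations of same-numbered replicates correlated above 0.1 in 3 of the 6 pairs of groups (up to r = 0.34) and at -0.28 between the M/Z groups, so the numbers were not taken to pair the samples. With the replicate block, 5 genes of the set were lower at stage 10.5, *tnfrsf8.S* having an adjusted p of 0.052, and 7 with the numbers crossed in M/Z stage 10.5, an alternative chosen after seeing the data. With the block 0 homeologs were higher at stage 10.5 in +/Z (2 unadjusted), and 6 neighbours were higher and 10 lower at stage 9. The nearest copies by protein sequence were not run, because no protein sequences were used here.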
